A study of Homo sapiens with 8 samples.

Results

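The genes described here make cholesterol and fatty acids under the control of the SREBP transcription factors. They are the rows of the deposited count table whose gene symbol is on a list of 35 such genes, out of 57445 genes in the table. The list holds 18 enzymes of sterol synthesis, 5 regulators of SREBP, 4 genes of sterol transport and 8 genes of fatty acid synthesis. All 35 symbols were found, and 34 passed the filter on low counts, a mean of at least 10 counts over all libraries, as did 15806 genes in all. The member left out was ABCG1, a sterol exporter, which lay between 0 and 0.215 CPM (counts scaled to library size) in every library.

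The cells were MDA231-BrM2, which derive from the breast cancer line MDA-MB-231 and form metastases in the brain, and the RNA was the polysome-bound RNA that anti-GFP beads pulled down (TRAP, in which a tagged ribosome marks the cells of interest in a mixed lysate). Carcinoma cells with hairpin 1 against connexin 43 (Cx43) were grown with astrocytes, as were cells with hairpin 2 against Cx43 and cells with a control hairpin. Control-hairpin cells were also grown alone. Each of these 4 groups had 2 libraries, which the series design calls independent replicates. Cocultures lasted 24 h at 1 astrocyte per carcinoma cell, in DMEM with serum, and all groups are derived from 1 cell line. The hairpins against Cx43 were measured only in coculture. The species of the astrocytes is not given in the sources used here.

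Sterol regulatory element-binding proteins, SREBP1 and SREBP2, are made as precursors in the membrane of the endoplasmic reticulum. When membrane sterol is low, the escort protein SCAP carries them to the Golgi, where they are cut, and the freed part enters the nucleus and turns on sterol and fatty acid genes. INSIG proteins hold SCAP back when sterol is plentiful, and INSIG1 is itself a target of SREBP. Oxysterols act in the other direction through LXR, whose targets ABCA1, ABCG1 and MYLIP promote sterol efflux or limit sterol uptake. Astrocytes are known as a main source of cholesterol in the brain.

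The promoter stretches of 4 of the 7 members lower with both hairpins are shown, because CCAAT boxes, bound by NF-Y, are known to work beside SREBP sites. FDFT1 had no promoter entry, and IDI1 and DHCR7, with more than 1 listed start, were left out. HMGCS1 was kept by choice despite its 2 listed starts. The sequences are those RefSeq gives for GRCh38.p14, from up to 250 bases upstream of the annotated start and ending before the first annotated exon. They run 5′ to 3′ on the strand of the gene, and capitals mark CCAAT or its complement ATTGG. INSIG1 lies at chr7:155297628-155297775 (plus strand), MSMO1 at chr4:165327419-165327622 (plus strand), STARD4 at chr5:111512591-111512785 (minus strand) and HMGCS1 at chr5:43313513-43313662 (minus strand, the more upstream of 2 listed starts).
INSIG1: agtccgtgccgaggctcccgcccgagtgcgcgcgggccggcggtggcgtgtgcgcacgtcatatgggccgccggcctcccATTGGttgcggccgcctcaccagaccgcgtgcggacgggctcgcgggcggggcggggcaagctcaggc
MSMO1: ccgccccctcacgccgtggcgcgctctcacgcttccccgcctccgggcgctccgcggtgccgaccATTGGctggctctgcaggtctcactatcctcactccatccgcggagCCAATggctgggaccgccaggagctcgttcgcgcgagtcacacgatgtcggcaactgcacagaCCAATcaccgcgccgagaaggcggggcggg
STARD4: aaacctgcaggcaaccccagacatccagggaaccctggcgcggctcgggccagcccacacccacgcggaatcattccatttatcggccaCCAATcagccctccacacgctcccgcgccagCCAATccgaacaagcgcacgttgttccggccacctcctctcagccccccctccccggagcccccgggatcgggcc
HMGCS1: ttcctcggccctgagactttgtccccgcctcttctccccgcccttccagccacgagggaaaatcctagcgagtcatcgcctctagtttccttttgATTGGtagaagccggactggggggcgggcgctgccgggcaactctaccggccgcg

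Promoter entries matched 30 of the 35 members. Searched on both strands over the full 250 bases, CCAAT was present in 20 of these 30 members, in 13 of 15 sterol enzymes and in 3 of 7 fatty acid genes. Among all 27305 genes with an entry, 37.0% held it. Those genes were taken whether or not they were expressed here, so they are not matched to the members. A gene counted as holding a motif if any of its listed starts did. The GC box GGGCGG stood in 29 of 30 members, and in 46.2% of all genes. The E-box CACGTG stood in 4 of 30 members, and in 7.73% of all genes. A core of the sterol element written as TCACNCCAC was found in 1 of 30 members, SREBF2, and in 1.09% of all genes. That SREBF2 match, chosen for display after the letters were seen, is at chr22:41832962-41832991 (plus strand), with the match in capitals.
SREBF2: tgacgcgccaTCACCCCACgcaccgcttcg
A match is a description of letters, and the absence of one says only that these letters are not in this window.

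Gene counts ran from 38219702 to 48997555 per library, so that 3 counts, the floor used here, equal 0.0624 to 0.0805 CPM. Markers of the MDA-MB-231 line were tested for all 11 genes of their list, and their summed level was 4463 to 5073 CPM in the Cx43-depleted cocultures, 5641 and 5309 CPM in the control coculture, beside 5125 and 4689 CPM in control cells alone. Over all genes tested, edgeR called 5.85% lower and 3.37% higher with the Cx43 hairpins. In the control coculture against cells alone it called 8.74% higher and 2.93% lower. Each marker count below is to be read against these shares. With the Cx43 hairpins, 5 of these 11 carcinoma markers were lower and 0 higher, with a median log2 fold change of -0.25. DESeq2 called 6 of them lower, and 906 of all 15806 genes tested. In the control coculture against cells alone, 2 of the 11 were higher and 0 lower. The summed level of 17 astrocyte markers was 245 to 258 CPM in the Cx43-depleted cocultures, 295 and 300 CPM in the control coculture, beside 241 and 244 CPM in control cells alone. GLUL, which many cell types express, made up 162 to 199 CPM of that sum. The astrocyte genes GJB6 and S100B stayed under the floor in every library, and AQP4 at 0.047 to 0.169 CPM. Others were well above it, with SOX2 at 8.15 to 18.3 CPM. GFAP was at 16.5 and 16.9 CPM with hairpin 1, 11.7 and 12.2 CPM with hairpin 2, 13.8 and 12.8 CPM in the control coculture, beside 8.79 and 8.52 CPM alone. Astrocyte markers moved in both comparisons. In the control coculture 7 of 14 tested were higher and 0 lower than alone. With the Cx43 hairpins 4 of 14 were lower and 0 higher. Taken singly, hairpin 1 had 4 lower and 1 higher, and hairpin 2 had 1 lower and 0 higher. Over all genes tested, 4.73% were lower and 3.09% higher with hairpin 1, and 3.2% lower and 0.962% higher with hairpin 2. Fibroblast markers summed to 428 to 504 CPM in the depleted cocultures, 752 and 808 CPM in the control coculture, beside 658 and 1067 CPM in cells alone. COL1A1, at 336 to 832 CPM, and COL1A2, at 71.0 to 202 CPM, made up most of that sum. COL1A1 was at 832 and 517 CPM in control cells alone, where no other cell type was added. With the hairpins 3 of 7 tested fibroblast markers were lower and 0 higher, and 2 of 7 were higher and 0 lower in the control coculture than alone. Of 8 microglia and macrophage markers, AIF1, C1QA and TYROBP were at 0 in all 8 libraries, and only CD68 and CSF1R could be tested. Both were higher in the control coculture than alone, and 1 of the 2 was lower with the hairpins. CD68 was at 2.61 and 2.08 CPM with hairpin 1, 1.83 and 1.96 CPM with hairpin 2, 3.70 and 3.84 CPM in the control coculture, beside 2.18 and 2.72 CPM alone. CSF1R was at 1.13 to 1.38 CPM in the depleted cocultures, 1.59 and 1.31 CPM in the control coculture, beside 0.633 and 0.665 CPM alone. Of 5 tested neuron markers, 2 were lower with the hairpins and 2 higher in the control coculture than alone; of 2 tested endothelial markers 0 were lower with the hairpins and 1 was higher in coculture, and of 3 oligodendrocyte markers 0 were called in either comparison. The part of these markers in the results below was not tested. In such a pull-down, fewer ribosomes from a cell type and less RNA per cell cannot be told apart.

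The targeted gene was lower in every hairpin library. GJA1, which encodes Cx43, was at 27.8 and 27.8 CPM with hairpin 1, 31.7 and 33.8 CPM with hairpin 2, 65.9 and 64.6 CPM in the control coculture, beside 51.1 and 46.3 CPM in control cells alone. The log2 fold change of the depleted cocultures against the control coculture was -1.11 ± 0.061 (SE), with an adjusted p of 7.89e-06 in edgeR's quasi-likelihood test, the test used for all adjusted p-values below. GJA1 was itself higher in the control coculture than alone, by 0.42 on the log2 scale (adjusted p = 0.00665). That call was lost without control coculture library 1 (0.41, adjusted p = 0.0507) and without library 2 of cells alone (0.34, adjusted p = 0.0616).

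With Cx43 depleted, 12 members fell by modest amounts and none rose, most of them enzymes and regulators of the sterol branch. Taking the mean of both hairpins against the control coculture, 12 of 34 tested members were lower and 0 higher at an adjusted p under 0.05. Over all genes tested, 9.22% were called, 5.85% lower and 3.37% higher. At an unadjusted p under 0.05, 21 members were lower and 0 higher, and DESeq2 called 13 lower and 0 higher. Of all 15806 genes tested, 2209 were lower and 1854 higher at that unadjusted p, and DESeq2 called 906 lower and 591 higher. The median log2 fold change of the 34 members was -0.25, beside -0.01 for all genes tested. The count of 12 rested on the libraries at hand: leaving out control coculture library 1 gave 6, its library 2 gave 5, hairpin 2 library 1 gave 5 and hairpin 2 library 2 gave 6. FDFT1, MSMO1, INSIG1 and STARD4 kept their call without any 1 of the 8 libraries.

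INSIG1, the sterol-sensing anchor that retains SCAP, had the largest fall among members. It was at 128 and 130 CPM with hairpin 1, 124 and 123 CPM with hairpin 2, 239 and 239 CPM in the control coculture, beside 138 and 141 CPM in control cells alone. All 4 depleted libraries thus lay below control cells alone, though that difference did not pass the test (-0.14, adjusted p = 0.0841), and the control coculture stood above all other groups. The log2 fold change was -0.92 ± 0.049 (adjusted p = 6.3e-06), or 52.8% of the control coculture. The hairpins gave -0.89 and -0.96 singly.

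MSMO1, the methylsterol oxidase that strips methyl groups from the sterol ring, showed the same order of groups. Its levels were 34.1 and 33.4 CPM with hairpin 1, 34.7 and 32.5 CPM with hairpin 2, 51.7 and 51.8 CPM in the control coculture, beside 37.0 and 37.0 CPM alone. The depleted and control cocultures did not overlap, and the log2 fold change was -0.62 ± 0.055 (adjusted p = 0.000248). STARD4, a soluble carrier that moves cholesterol between membranes, was at 48.1 and 46.4 CPM with hairpin 1, 48.0 and 50.2 CPM with hairpin 2, 63.2 and 69.1 CPM in the control coculture, beside 52.0 and 52.7 CPM alone. Its log2 fold change was -0.46 ± 0.059 (adjusted p = 0.0024), and again every depleted library lay below both other groups. Against cells alone, the depleted cocultures did not pass the test for MSMO1 or STARD4.

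**Figure D1:**
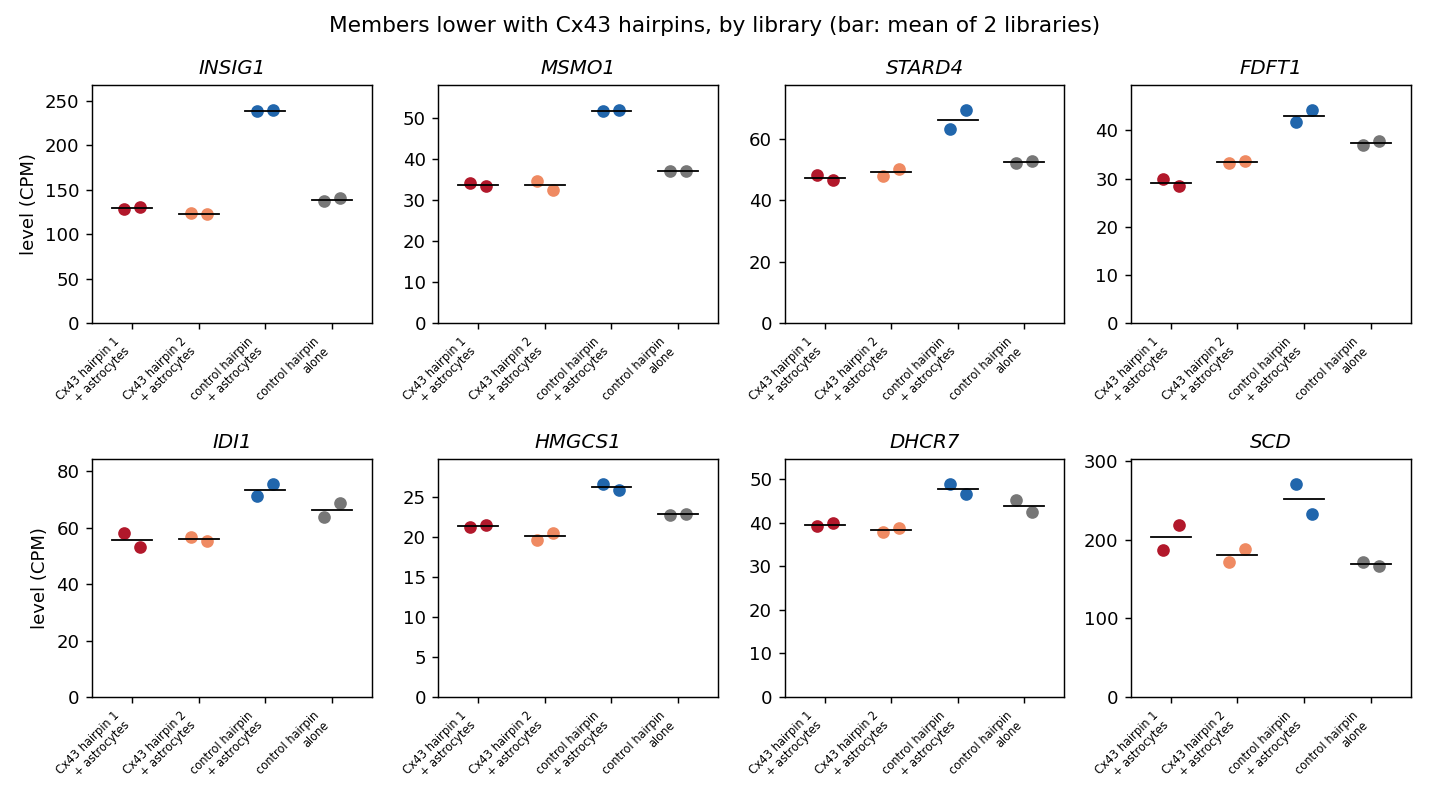
Level in CPM (vertical axis, from 0) of 8 members in each library, with a bar at the mean of the 2 libraries of a group. INSIG1 stands at 123 to 130 CPM in the 4 Cx43-depleted libraries, at 239 CPM in both control coculture libraries, and at 138 and 141 CPM in cells grown alone.

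HMGCS1 and IDI1, which act before squalene, also fell, while MVK, PMVK, FDPS and ACAT2 of the same stretch did not pass the test. HMGCS1, which joins acetyl-CoA units ahead of mevalonate, was at 21.2 and 21.5 CPM with hairpin 1, 19.6 and 20.5 CPM with hairpin 2, 26.6 and 25.9 CPM in the control coculture, beside 22.8 and 22.9 CPM alone. Its log2 fold change was -0.34 ± 0.058 (adjusted p = 0.00948), lost without either control coculture library and without hairpin 2 library 1. IDI1, the isomerase that makes the reactive isoprene unit, had 58.1 and 53.3 CPM with hairpin 1, 56.6 and 55.2 CPM with hairpin 2, 71.3 and 75.5 CPM in the control coculture, beside 63.7 and 68.7 CPM alone. The fall was by 0.39 (adjusted p = 0.00717), lost on leaving out control coculture library 2 (adjusted p = 0.0991) but no other library. The depleted libraries of both genes lay below the control coculture and below control cells alone. The difference from cells alone passed the test for IDI1 but not for HMGCS1 (-0.14, adjusted p = 0.125). HMGCS1 and IDI1 each share exon bases with another annotated gene on the opposite strand, 15.0% and 14.8% of their own.

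FDFT1, squalene synthase, which commits carbon to sterols, was at 29.9 and 28.4 CPM with hairpin 1, 33.3 and 33.6 CPM with hairpin 2, 41.7 and 44.1 CPM in the control coculture, beside 37.0 and 37.9 CPM alone. Its log2 fold change was -0.46 ± 0.058 (adjusted p = 0.00206). DHCR7, the last reductase of the pathway, had 39.2 and 39.9 CPM with hairpin 1, 37.8 and 38.8 CPM with hairpin 2, 48.8 and 46.5 CPM in the control coculture, beside 45.1 and 42.4 CPM alone. Its fall was by 0.29 (adjusted p = 0.0169), lost on leaving out any control coculture or hairpin 2 library. No library of the depleted cocultures reached the control coculture in either gene.

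3 more sterol enzymes were lower over both hairpins, with calls that did not hold without single libraries. MVD, the mevalonate diphosphate decarboxylase, was 29.1 to 30.8 CPM in the depleted libraries and 35.6 and 38.3 CPM in the control coculture (log2 fold change -0.30, adjusted p = 0.0497). NSDHL, which with HSD17B7 removes the methyl groups MSMO1 oxidizes, was 17.5 to 18.3 CPM against 21.2 and 21.8 CPM (log2 fold change -0.27, adjusted p = 0.032). HSD17B7 was 3.88 to 4.53 CPM against 5.35 and 6.87 CPM (log2 fold change -0.51, adjusted p = 0.0347), and copies of this gene elsewhere in the genome make its count uncertain. All 3 calls were lost on leaving out control coculture library 2 or either hairpin 2 library. MVD and NSDHL also lost theirs without control coculture library 1. HSD17B7 lost its call without either library of cells alone, without hairpin 1 library 2, and with only the compared groups in the fit (adjusted p = 0.0632). Without either library of cells alone its log2 fold change stayed at -0.51, and without control coculture library 2 it was -0.31.

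Of the other sterol enzymes, 10 of 18 were not called in this comparison. FDPS, LSS, TM7SF2, EBP and ACAT2 had log2 fold changes of -0.24, -0.28, -0.32, -0.25 and -0.25 with adjusted p from 0.0729 to 0.11. MVK, PMVK, SQLE, CYP51A1 and SC5D lay between -0.11 and 0.01. CYP51A1, at 4.71 to 6.13 CPM, shares 79.4% of its exon bases with another gene on the same strand in the reference annotation. Its count is therefore uncertain. SQLE, squalene epoxidase and a rate-controlling step after squalene, was at 31.6 to 36.1 CPM in the depleted libraries and 32.8 and 37.3 CPM in the control coculture, which overlap.

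The regulators other than INSIG1 did not pass the test. SREBF2, encoding the sterol-directed factor, was at 116 and 139 CPM with hairpin 1, 120 and 125 CPM with hairpin 2, 150 and 139 CPM in the control coculture, beside 131 and 123 CPM alone, with a log2 fold change of -0.21 (adjusted p = 0.129). SREBF1, encoding the factor that favours fatty acid genes, had -0.22 (adjusted p = 0.243), and shares exon sequence with RAI1 on the other strand. INSIG2 had -0.09 and SCAP 0.02. A list of 11 genes for SREBP cleavage and sterol-driven protein degradation had 0 called members in either direction, with 3 higher and 0 lower at an unadjusted p under 0.05 and 0 by DESeq2. Of all 15806 genes tested, 1854 were higher and 2209 lower at that unadjusted p.

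Of the fatty acid genes, SCD and FADS2 were called lower. SCD, the desaturase that makes monounsaturated fatty acids, was at 187 and 219 CPM with hairpin 1, 172 and 188 CPM with hairpin 2, 271 and 232 CPM in the control coculture, beside 172 and 166 CPM alone. Its log2 fold change with depletion was -0.40 ± 0.086 (adjusted p = 0.0263), which was lost without control coculture library 1 (-0.28, adjusted p = 0.168) and without either hairpin 2 library. FADS2, the first desaturase for polyunsaturated fatty acids, was 149 to 174 CPM in depleted libraries and 187 and 210 CPM in the control coculture (-0.34, adjusted p = 0.0412), also lost without any 1 library of the control coculture or hairpin 2, or without library 1 of control cells alone. FADS2 shares exon sequence with FADS1 on the other strand, and the kit does not mark strand.

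FASN, the fatty acid synthase itself, was at 70.3 and 92.8 CPM with hairpin 1, 72.2 and 74.9 CPM with hairpin 2, 116 and 101 CPM in the control coculture, beside 120 and 87.7 CPM alone. It did not pass the test (log2 fold change -0.49 ± 0.14, adjusted p = 0.0636). The depleted libraries lay below the control coculture, while those of cells alone spanned it. ACLY, which supplies cytosolic acetyl-CoA, had -0.17 and ACACA, acetyl-CoA carboxylase, -0.09, and ELOVL6, an elongase, had 0.07. LPIN1, a phosphatidate phosphatase, had -0.23 (adjusted p = 0.0682).

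Set side by side, 8 of 18 sterol enzymes and 2 of 8 fatty acid genes were lower, with median log2 fold changes of -0.28 and -0.20. At an unadjusted p under 0.05, 13 of 18 and 5 of 8 were lower, and DESeq2 called 8 and 3 lower. Of all 15806 genes tested, 2209 were lower at that unadjusted p and 906 by DESeq2. Log2 fold changes were negative for 16 of 18 sterol enzymes and 7 of 8 fatty acid genes, so the branches differed less by these counts. In single libraries, set against the mean of the control coculture on the log2 scale, the median sterol enzyme was -0.26 and -0.29 with hairpin 1, -0.28 and -0.28 with hairpin 2, 0.0031 and -0.0031 in the control coculture, and -0.0085 and 0.014 in control cells alone. The median fatty acid gene was -0.25 and -0.11 with hairpin 1, -0.28 and -0.20 with hairpin 2, 0.081 and -0.081 in the control coculture, and -0.080 and -0.26 alone. The pooled SD between replicate libraries of these medians was 0.016 for sterol enzymes and 0.10 for fatty acid genes. The sterol medians of depleted libraries lay below those of both control groups, while fatty acid medians of depleted libraries overlapped those of control cells alone. A median over genes does not show the spread of single genes. With hairpin 1, LSS was at -0.45 and -0.13 and FDPS at -0.24 and -0.49, while MSMO1 was at -0.60 and -0.63. Opposite shifts between replicates can cancel in a median, and its SD is then smaller than that of single genes. The branches also differ in exon length, from 1280 to 7238 bases for sterol enzymes and from 5217 to 13008 for fatty acid genes. The part of length in these spreads and medians was not tested. The 2 control coculture values mirror each other because their mean is the reference. No test of the difference between the branches was made.

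**Figure D2:**
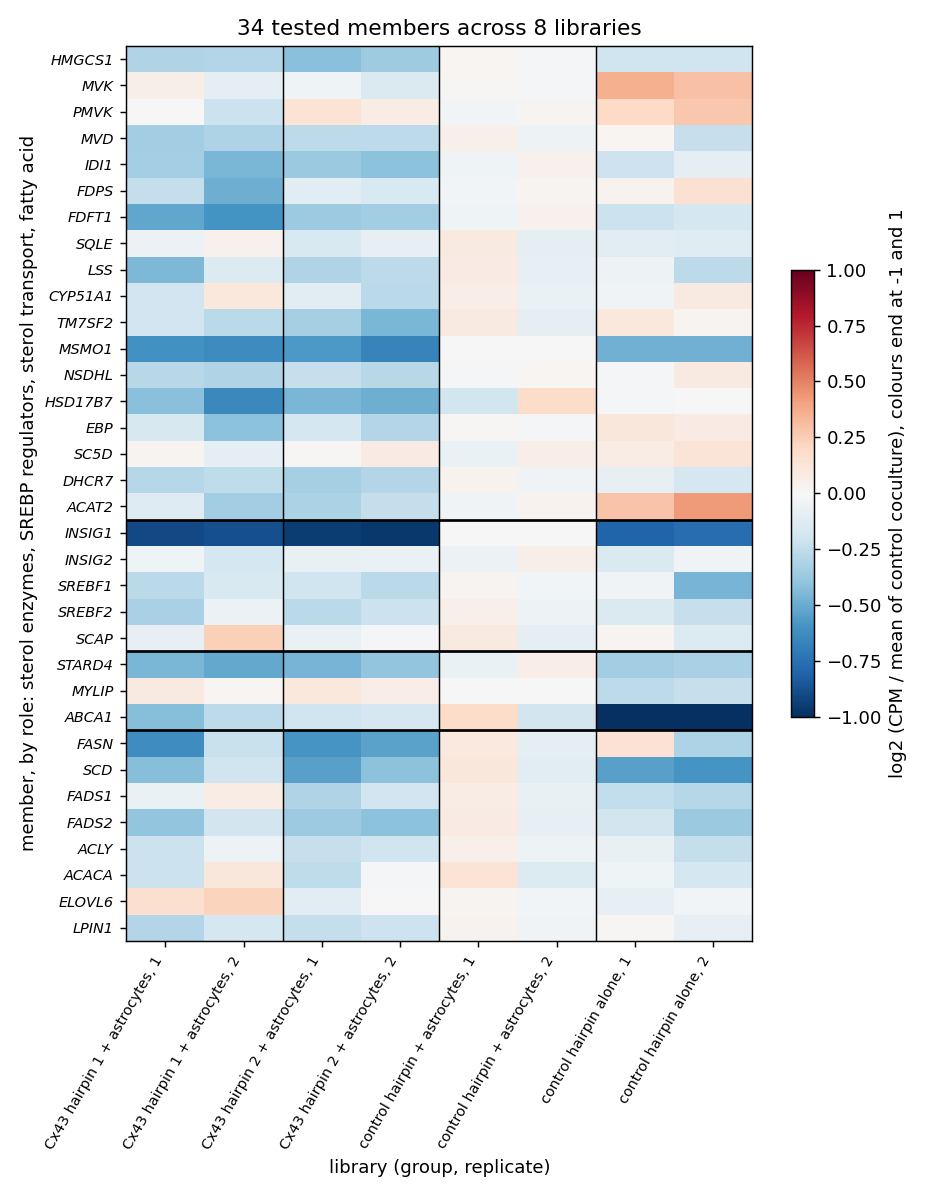
Log2 level of each of the 34 tested members (rows, by role) in each library (columns), relative to its mean in the control coculture; blue is lower, red is higher, and colours end at -1 and 1. The median sterol enzyme lies between -0.26 and -0.29 in the 4 depleted libraries, while INSIG1 is among the darkest rows and ABCA1 is below the colour range in cells alone.

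Taken singly, each hairpin gave falls and no rises among members. Hairpin 1 had 9 members lower and 0 higher (background 7.82% in all, 4.73% lower and 3.09% higher), with 18 lower and 1 higher at an unadjusted p under 0.05 and 10 lower by DESeq2. Of all 15806 genes tested, 2117 were lower and 1925 higher unadjusted with hairpin 1, and 820 lower and 572 higher by DESeq2. Hairpin 2 had 8 members lower and 0 higher (background 4.16% in all, 3.2% lower and 0.962% higher), with 21 lower and 0 higher unadjusted and 10 lower by DESeq2. Of all genes tested, 1784 were lower and 1303 higher unadjusted with hairpin 2, and 547 lower and 196 higher by DESeq2. Hairpin 1 called FDPS (-0.36) and NSDHL (-0.29), and hairpin 2 called SCD (-0.48), beside the members below. These 3 calls did not hold without single libraries. NSDHL lost its call whichever of the 8 libraries was left out and in DESeq2 (adjusted p = 0.0759). FDPS lost its call on leaving out any library other than hairpin 1 library 1, and was at -0.24 without hairpin 1 library 2 (adjusted p = 0.156). SCD lost its call without either hairpin 2 library, either library of cells alone, or control coculture library 1. 7 members were lower over both hairpins and with each alone, namely HMGCS1, IDI1, FDFT1, MSMO1, DHCR7, INSIG1 and STARD4, a class that holds 2.62% of all genes tested. The hairpin comparisons share the control coculture libraries, and the comparison over both hairpins is their mean, so these calls are not independent. The class of genes higher in all of these holds 0.81% of genes tested and 0 members. The lower class held 0 of 8 fatty acid genes. At an unadjusted p under 0.05, 4 of these 8 were lower and 1 higher with hairpin 1, and 6 were lower and 0 higher with hairpin 2.
The count for hairpin 1 was 5 and 3 when control coculture library 1 or 2 was left out, 4 without either hairpin 2 library, and 5 without hairpin 1 library 2. The count for hairpin 2 was 3 without either control coculture library, 2 without either hairpin 2 library, and 5 without library 2 of cells alone. INSIG1 and MSMO1 were called with each hairpin whichever library was left out, and DHCR7 lost its hairpin 1 call whichever was.
Hairpin 2 against hairpin 1 had 0 members called (background 0.0316% in all, 0.0253% higher and 0.00633% lower), with 3 higher and 2 lower at an unadjusted p under 0.05 and 0 by DESeq2, and log2 differences from -0.25 to 0.23. Of all 15806 genes tested, 570 were higher and 514 lower at that unadjusted p, and DESeq2 called 13 higher and 9 lower.

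A few members stood at higher levels when astrocytes were present. Some astrocyte markers did too, with 7 of 14 tested higher and 0 lower, and their part in the member levels was not tested. In control cells grown with astrocytes against the same cells alone, 6 of 34 members were higher and 2 lower (background 11.7% in all, 8.74% higher and 2.93% lower), and DESeq2 called 5 and 2. Of all 15806 genes tested, DESeq2 called 1257 higher and 514 lower. This comparison shares the control coculture with the hairpin comparisons, so values are set side by side without a test of agreement. INSIG1 was 0.78 ± 0.058 higher (adjusted p = 5.38e-05), MSMO1 0.48 ± 0.065 (adjusted p = 0.00193) and STARD4 0.34 (adjusted p = 0.0156). SCD was 0.57 ± 0.10 higher (adjusted p = 0.00804). INSIG1 and MSMO1 kept their call without any 1 library, STARD4 lost it without control coculture library 2 or either library of cells alone, and SCD without control coculture library 1 or library 1 or 2 of cells alone.

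**Figure D3:**
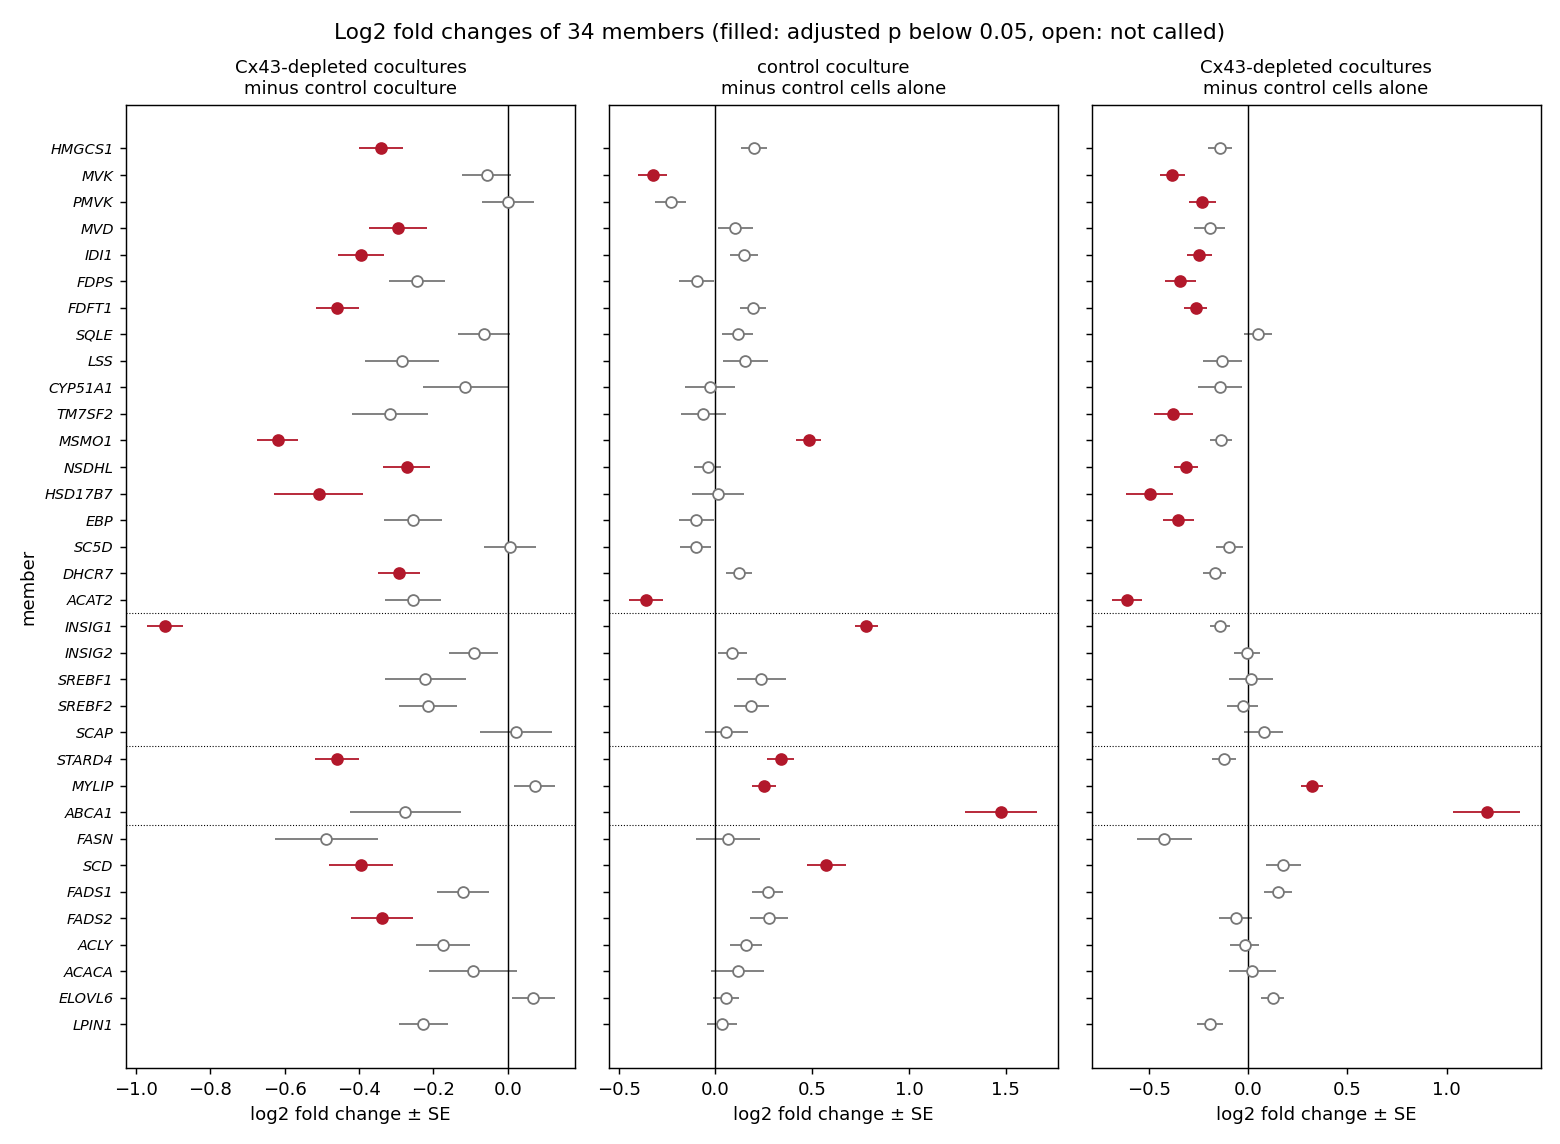
Log2 fold change with its SE (horizontal axis) for each of the 34 tested members, in 3 comparisons that share groups. Filled points are called; 12 members are lower and 0 higher with Cx43 depletion, and INSIG1 and MSMO1 are lower there and higher in the control coculture than alone.

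The sterol exporter ABCA1, a target of LXR, was the member with the largest rise. It was at 8.05 and 9.02 CPM with hairpin 1, 9.42 and 9.59 CPM with hairpin 2, 12.3 and 9.52 CPM in the control coculture, beside 4.74 and 3.14 CPM in control cells alone. The coculture difference was 1.48 ± 0.19 (adjusted p = 0.00139) and the depleted coculture difference from cells alone was 1.20 ± 0.17 (adjusted p = 0.00309), both called without any 1 library. With depletion against the control coculture it was -0.28 (adjusted p = 0.286), with overlapping libraries. MYLIP, the ligase that degrades lipoprotein receptors, was 55.7 and 52.9 CPM with hairpin 1, 56.1 and 54.8 CPM with hairpin 2, 52.3 and 52.0 CPM in the control coculture, beside 43.4 and 44.4 CPM alone. Its coculture call (0.25, adjusted p = 0.0353) was lost in DESeq2 (adjusted p = 0.0702) and without any library outside hairpin 1.

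MVK, mevalonate kinase, and ACAT2, the cytosolic thiolase that opens the pathway, went the other way. MVK was at 41.4 and 37.1 CPM with hairpin 1, 38.7 and 36.0 CPM with hairpin 2, 40.0 and 39.6 CPM in the control coculture, beside 50.8 and 48.9 CPM alone. The coculture difference was -0.32 (adjusted p = 0.0273) and that of the depleted cocultures from cells alone was -0.38 (adjusted p = 0.00732). ACAT2 was at 55.2 and 47.3 CPM with hairpin 1, 48.5 and 51.0 CPM with hairpin 2, 58.9 and 61.6 CPM in the control coculture, beside 73.5 and 80.7 CPM alone. Its differences were -0.36 (adjusted p = 0.0335) and -0.61 (adjusted p = 0.00174). On the opposite strand, ACAT2 shares 26.5% of its exon bases with SOD2 and 9.23% with TCP1, and MVK shares 4.72% with MMAB. The kit does not mark strand and the strand setting of the counting is not given, which leaves the ACAT2 and MVK counts uncertain. Both coculture calls were lost on leaving out any 1 of the 6 libraries outside hairpin 1, which left 0 members lower. Without library 2 of cells alone, 3 members were higher in coculture in place of 6.

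**Figure D4:**
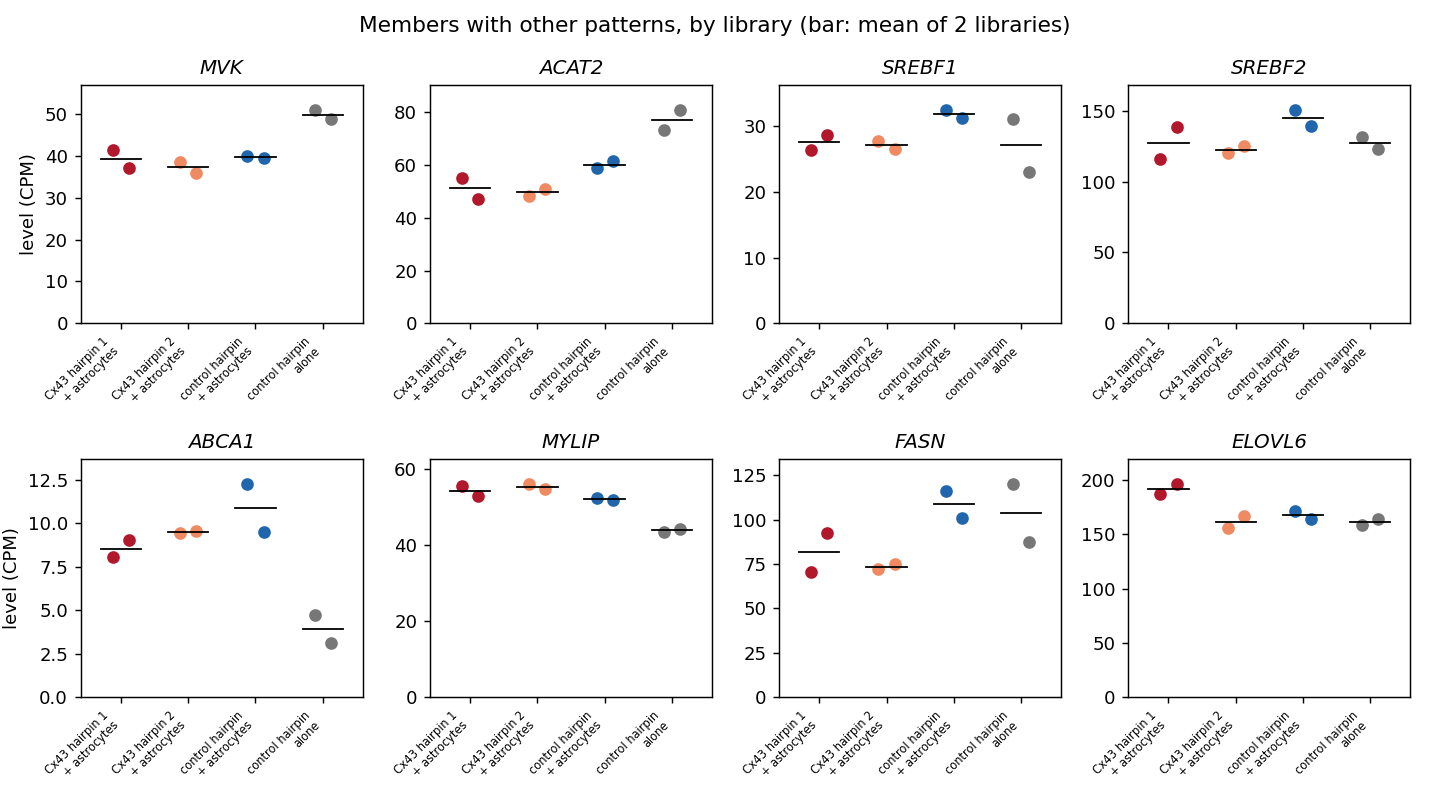
Level in CPM (vertical axis, from 0) of 8 other members in each library, with a bar at the mean of the 2 libraries of a group. MVK and ACAT2 stand highest in cells grown alone, while ABCA1 is at 3.14 and 4.74 CPM there and at 8.05 CPM or more in each coculture library.

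Against control cells alone, the depleted cocultures had 10 members lower, all sterol enzymes, and 2 higher (background 17.1% in all, 6.34% lower and 10.8% higher). The lower ones were ACAT2, MVK, PMVK, IDI1, FDPS, FDFT1, TM7SF2, NSDHL, HSD17B7 and EBP, and the higher ones ABCA1 and MYLIP. 10 of 18 sterol enzymes and 0 of 8 fatty acid genes were lower, with medians of -0.24 and 0.0026. Among the fatty acid genes, 2 were lower and 0 higher at an unadjusted p under 0.05, and DESeq2 called 1 lower. Of all 15806 genes tested, 2477 were lower and 3022 higher at that unadjusted p, and DESeq2 called 1145 lower and 1620 higher. For HSD17B7 the fall was by 0.50 and for ACAT2 by 0.61, while NSDHL, FDPS, EBP and TM7SF2 fell by 0.31 to 0.38 and IDI1, FDFT1 and PMVK by 0.23 to 0.26. The count of 10 was 1 and 3 when library 1 or 2 of cells alone was left out, and 4 and 2 when hairpin 2 library 1 or 2 was. ACAT2 and ABCA1 kept their calls without any 1 library. The higher count was 1 without either library of cells alone.

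Lists of neighbouring pathways, chosen with earlier results of these data known, were counted in the same fits. Over all genes tested, 5.85% were lower and 3.37% higher with depletion, and each list is to be read against these shares. By DESeq2, 906 of all 15806 genes tested were lower and 591 higher. Of 13 tested genes that supply cytosolic acetyl-CoA and NADPH, 6 were lower and 0 higher with depletion, or 46.2% lower. IDH1, which makes NADPH from isocitrate, was at 38.5 and 33.5 CPM with hairpin 1, 31.8 and 33.5 CPM with hairpin 2, 51.8 and 54.4 CPM in the control coculture, beside 39.1 and 41.9 CPM alone (log2 fold change -0.63, adjusted p = 0.0012). TKT of the pentose phosphate pathway fell by 0.46 (adjusted p = 0.0018) and PGD by 0.33 (adjusted p = 0.0137). IDH1 and TKT kept these calls without any 1 library, and PGD lost its call without any control coculture or hairpin 2 library. IDH1 and TKT were also higher in the control coculture than alone, by 0.39 and 0.36, calls that IDH1 lost without any 1 library of either group and TKT without control coculture library 1 or library 2 of cells alone.

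Of 18 tested genes of fatty acid elongation, desaturation and activation, 3 were lower and 1 higher with depletion, or 16.7% lower and 5.56% higher, beside 5.85% and 3.37% of all genes. ELOVL5, an elongase of polyunsaturated chains, fell by 0.38 (adjusted p = 0.0051), and TECR, the reductase of the elongation cycle, by 0.37 (adjusted p = 0.0098), while FADS3 was 0.22 higher. Of 21 genes of fatty acid oxidation and PPAR, 4 were lower (19.0%) and 0 higher, and DESeq2 called 3 lower. PPARG, the adipogenic receptor, had the smallest p among the called genes of this list with a mean count of at least 50, at -0.53 (adjusted p = 0.0011). PPARG was at 27.6 and 26.6 CPM with hairpin 1, 26.1 and 27.2 CPM with hairpin 2, 38.5 and 38.9 CPM in the control coculture, beside 26.5 and 27.9 CPM alone. Of 17 genes of cholesterol uptake, traffic and esterification, 3 were lower (17.6%) and 0 higher with depletion, namely LIPA, the lysosomal lipase, by 0.40, SCARB2 by 0.26 and NPC2, a lysosomal sterol carrier, by 0.42. Of 22 genes of glycerolipid assembly, 2 were higher (9.09%) and 1 lower (4.55%), the lower share being near that of all genes. DGAT2, which finishes triglyceride synthesis, was 0.44 higher (adjusted p = 0.0054), at 15.7 and 15.8 CPM with hairpin 1, 19.5 and 19.0 CPM with hairpin 2, 13.0 and 12.7 CPM in the control coculture, beside 13.6 and 12.7 CPM alone. Of 14 LXR and oxysterol genes, 1 was higher and 1 lower with depletion (7.14% each), and DESeq2 called 1 higher and 0 lower. Of 15 isoprenoid and prenylation genes, 2 were higher (13.3%) and 1 lower (6.67%), and DESeq2 called 1 each way. CYP7B1, an oxysterol hydroxylase, was the higher LXR and oxysterol gene, at 0.81 (adjusted p = 0.0112).

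ELOVL5 and PPARG kept their depletion calls without any 1 library. DGAT2 lost its call without control coculture library 2, TECR without that library or hairpin 2 library 2, and CYP7B1 without either control coculture library or hairpin 2 library 2. LIPA and SCARB2 lost theirs on leaving out any control coculture or hairpin 2 library, and NPC2 and FADS3 on leaving out any library outside hairpin 1.

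In the control coculture against cells alone, 3 of 14 LXR and oxysterol genes were higher (21.4%) and 0 lower, beside 8.74% higher and 2.93% lower over all genes, and DESeq2 called 2 higher and 0 lower. CYP27A1, a mitochondrial sterol hydroxylase, was at 3.86 and 4.15 CPM with hairpin 1, 4.55 and 4.98 CPM with hairpin 2, 5.53 and 4.91 CPM in the control coculture, beside 3.33 and 3.20 CPM alone. Its coculture difference was 0.68 (adjusted p = 0.0075), lost without control coculture library 1 or library 2 of cells alone. PPARG was 0.51 higher (adjusted p = 0.002), ELOVL5 0.41 (adjusted p = 0.0051) and SCARB2 0.45 (adjusted p = 0.0022), and FADS3 was lower, at -0.40 (adjusted p = 0.0053). These 4 calls held without any 1 library. PPARG, ELOVL5 and SCARB2 were thus higher in the control coculture than in cells alone, and lower in the depleted cocultures than in the control coculture, which both comparisons share.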

How the data were processed

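The authors deposited a table of whole-number counts per gene for 8 libraries, with 57445 genes and 5 HTSeq counter entries; its name calls it normalized, but the values are whole numbers with unequal totals and were treated as unnormalized counts, on which every CPM and p-value depends, and every column matched a library title (unmapped: 0). Per the submitters' processing notes, TopHat2, HTSeq, DESeq2 and hg19 were used, with no versions given; the strand setting and annotation are not given in the sources used here. Counter entries, of which reads without a unique place made up 14.2% to 26.1% of each library's total, were left out. The 15806 genes whose mean count reached 10 were scaled by TMM and tested by quasi-likelihood in edgeR 4.0.16 and R 4.3.3, in 1 fit of 4 groups, with Benjamini-Hochberg adjustment over all of them and a threshold of 0.05. DESeq2 1.42.0 was an alternative, run on the counts. CPM use TMM-scaled library sizes, and ± after a log2 fold change is its SE. The fit was tested on simulated counts. P-values measure the spread between libraries the series design calls independent, as an estimate that the 4 groups share. That spread was unequal. The chi-square per degree of freedom between the 2 libraries was 32.6 for hairpin 1, 4.22 for hairpin 2, 22.0 for the control coculture and 13.6 for cells alone. Leaving out a library changes the shared estimate as well as the mean of its group. The members and all gene lists were chosen with earlier results of these data known. Named genes are the members, GJA1 and, per list and comparison, up to 3 called genes with the smallest p and a mean count of at least 50; other genes named are markers. Overlapping genes and sequences came from a reference annotation and from RefSeq for GRCh38.p14, matched by symbol.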

Additional observations from a re-analysis of the deposited data

How the results depend on the processing

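Replicate numbers did not pair the libraries: same-numbered libraries of different groups correlated at -0.64 to 0.38 in their deviations. With a replicate block, the members called lower were 6 with depletion, 4 with hairpin 1, 3 with hairpin 2 and 1 in the control coculture against cells alone. With only the compared groups in the fit, hairpin 1 had 3 lower. Leaving out each library in turn, members lower with depletion ranged from 5 to 15, with hairpin 1 from 3 to 10, with hairpin 2 from 2 to 11; members higher and lower in the control coculture than alone from 3 to 8 and 0 to 3, and in depleted cocultures than alone from 1 to 3 and 1 to 10. Median log2 fold changes of sterol enzymes ranged from -0.30 to -0.25 with depletion, -0.31 to -0.26 with hairpin 1, -0.29 to -0.25 with hairpin 2, -0.29 to -0.22 in depleted cocultures against cells alone, -0.020 to 0.016 in the control coculture against cells alone and -0.027 to 0.035 between hairpins; those of fatty acid genes from 0.067 to 0.25 in the control coculture against cells alone and -0.27 to 0.0022 between hairpins. GJA1 ranged from 0.34 to 0.48 in the control coculture against cells alone. Uncalled members near 0 changed sign. In the control coculture against cells alone, leaving out a library gave MVD -0.028 to 0.22, CYP51A1 -0.10 to 0.026, TM7SF2 -0.16 to 0.011, NSDHL -0.10 to 0.00018, HSD17B7 -0.20 to 0.18, SCAP -0.037 to 0.13, FASN -0.15 to 0.30, ACACA -0.032 to 0.23 and LPIN1 -0.022 to 0.069, and with no filter on low counts HSD17B7 was -0.0031. With depletion, leaving out a library gave PMVK -0.053 to 0.049, SQLE -0.15 to 0.033, SC5D -0.056 to 0.079, SCAP -0.063 to 0.12 and ACACA -0.22 to 0.054, and PMVK was -0.00128 with a mean count of at least 100 and -0.000908 with the replicate block. The cause of these changes was not tested. Of the results for called members under alternatives, 490 stayed on their side of the threshold and 196 kept the direction only. GJA1 is not in these counts. The 2 libraries in each group limit every count above.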
